A study of Canis lupus familiaris with 17 samples.

Results

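Circulating leukocytes of 5 younger dogs with osteosarcoma (OS3, OS6, OS7, OS8 and OS9, all under 8 years of age) were compared with those of 7 healthy dogs of similar age (H1 to H7). These 12 dogs are part of a series of 17 dogs. The other 5 dogs with osteosarcoma were at least 9 years old and enter only where stated. The dogs were chosen by their age in the study's patient records, not by any measured value. The healthy dogs were 7.89 ± 0.65 years old (SD, n = 7, range 6.9 to 8.8) and the younger dogs with osteosarcoma 6.88 ± 0.78 years (SD, n = 5, range 5.7 to 7.8). The younger dogs with osteosarcoma were thus still the younger group on average. The healthy group held 4 recorded females and 3 males, and the osteosarcoma group 3 females and 2 males, 1 of them intact. All were client-owned dogs of several breeds, and those with osteosarcoma carried a primary tumor and had received no treatment. Leukocytes were taken from blood over a density gradient, red cells were lysed, and 1 droplet-based single-cell RNA library was made per dog. The dog was therefore the replicate throughout.

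Osteosarcoma is a bone cancer that arises spontaneously in dogs and spreads early to the lungs. Blood leukocytes include T cells, which carry the CD3 complex beside their antigen receptor, B cells, which carry CD20 (the product of MS4A1), and monocytes, which are rich in lysozyme (LYZ) and present antigen on MHC class II (DLA-DRA in the dog). Monocytes and the immature myeloid cells called myeloid-derived suppressor cells are often studied in cancer because they can restrain T cells and can enter tumors.

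A barcode was kept when it held 200 to 4500 genes, 500 to 20000 unique molecular identifiers (UMIs) and under 10% mitochondrial UMIs. This left 58287 barcodes from the 12 dogs of 84345 from all 17. Healthy dogs gave 35867 barcodes and younger dogs with osteosarcoma 22420. The median UMI count per kept barcode was 3674 to 6694 in the healthy dogs and 4631 to 5965 in the dogs with osteosarcoma (exact two-sided Wilcoxon test, p = 0.755). OS3 gave 1239 kept barcodes, the fewest of the 12 dogs. OS3 and H2 also stood apart in expression. Over the genes with a mean of at least 10 CPM (counts scaled to library size, adjusted by TMM), their median rank correlation with the other dogs, in sums over all barcodes, was 0.921 and 0.899, against 0.942 to 0.964 for the other 10 dogs. In LYZ and DLA-DRA barcodes, described below, H1 stood apart as well, at 0.918 beside 0.920 for OS3 and 0.904 for H2, with the other 9 dogs at 0.953 or more. Over all barcodes, ribosomal protein genes summed to 75982.5 CPM in H2 and 99836 CPM in OS3, against 144160 to 194254 CPM in the other 10 dogs. MHC class I genes summed to 8109 CPM in H2 and 11343 CPM in OS3, and to at least 14226 CPM in the others. Mitochondrially encoded sums were also lowest in H2 and OS3, at 20914 and 21961 CPM. Whether this bears on the values of OS3 given below was not tested.

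The sex recorded for the dogs was set against a list of X chromosome genes, 9 of which were counted. Relative to the mean over dogs, 8 of the 17 dogs lay at 0.766 to 0.837 and the other 9 at 1.08 to 1.40. In 5 dogs the level went against the recorded sex. These were OS6, OS7, OS8, OS9 and H2, so 4 of the 5 younger dogs with osteosarcoma were affected, and none of the older dogs with osteosarcoma. Why the records and the RNA disagree was not tested. Any result below therefore holds for the libraries labelled as these dogs. The ages by which the younger dogs were chosen come from the same patient records as the recorded sex, so that they may be wrong where the records and the libraries do not belong together, which was not tested. Leaving those 4 dogs out leaves 1 dog with osteosarcoma, and values without them rest on that dog.

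The first question was whether the make-up of the leukocytes differed. LYZ and DLA-DRA barcodes (at least 20 LYZ and 5 DLA-DRA UMIs), the monocyte gate, took a larger share in the younger dogs with osteosarcoma, at 18.9% ± 3.77 (SD, n = 5) of kept barcodes against 13.7% ± 3.97 (SD, n = 7) in healthy dogs. MS4A1 barcodes (at least 1 MS4A1 UMI), the B cell gate, were at 5.50% ± 1.45 against 7.27% ± 1.66. CD3E barcodes (at least 1 CD3E UMI), the T cell gate, were at 54.5% ± 6.77 against 53.5% ± 11.04. After adjustment over the 3 gates, no share differed at 0.05.

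The LYZ and DLA-DRA share in the healthy dogs ran from 8.87% over a median of 12.9% to 20.1%. In OS3, OS6, OS7, OS8 and OS9, the order in which their values are given from here on, it was 14.6, 23.4, 19.9, 21.2 and 15.4%. All 5 dogs with osteosarcoma lay above the healthy median, but OS3, OS7 and OS9 lay within the healthy range. The shift was 5.48 percentage points (exact 95% interval 0.180 to 10.5), with p = 0.0480 in the exact two-sided Wilcoxon test and 0.110 after Benjamini-Hochberg adjustment. When every barcode was thinned to 2000 UMIs, which left out 12.8% of barcodes in each group, the shares were 13.8% ± 3.59 and 9.77% ± 2.75 (exact p = 0.0732, adjusted 0.220). The gate also held RNA of other cells. CD3E was found in 3.35 to 11.6% of its barcodes in healthy dogs and in 3.63 to 8.804% in dogs with osteosarcoma, ranges that overlap.

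The MS4A1 share ran from 5.42% over a median of 6.62% to 10.0% in healthy dogs. It was 3.47, 7.32, 4.998, 6.36 and 5.36% in the dogs with osteosarcoma. Of the 5 dogs, 4 lay below the healthy median and 3 below the lowest healthy dog, and the shift was −1.62 percentage points (exact 95% interval −3.66 to 0.519, exact p = 0.0732, adjusted 0.110). The CD3E share ran from 36.8% in H7 to 68.7% in H4 among the healthy dogs. It was 64.2, 52.3, 49.0, 48.5 and 58.8% in the dogs with osteosarcoma. These values all fell inside the healthy range (shift −2.38 percentage points, exact 95% interval −9.97 to 12.2, p = 1.00), an interval wide enough to hold sizeable differences in either direction.

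**Figure D1:**
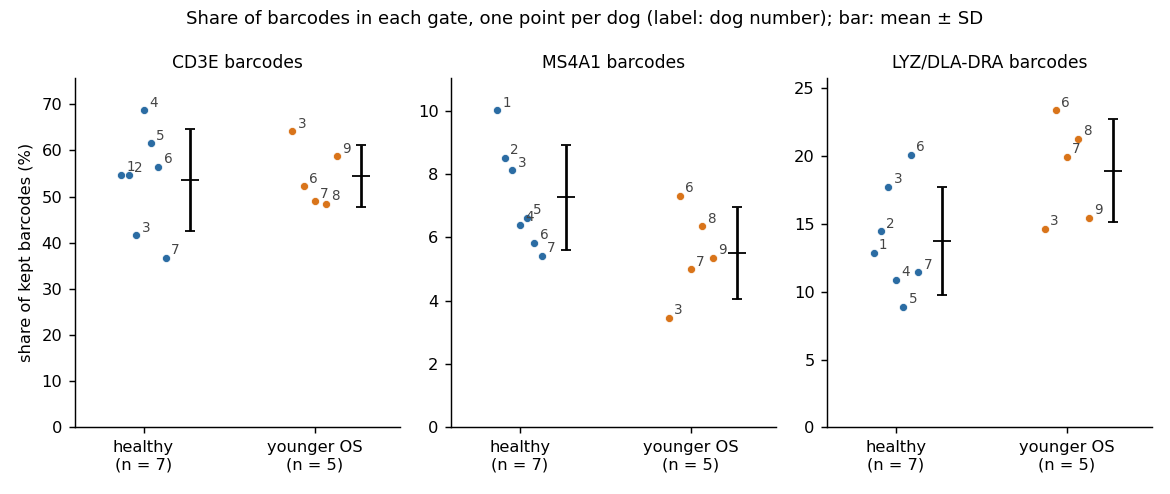
Share of kept barcodes (vertical axis, percent) in the CD3E, MS4A1 and LYZ/DLA-DRA gates, with 1 point per dog labelled with its number, and the mean ± SD as a bar for 7 healthy dogs (blue) and 5 younger dogs with osteosarcoma (orange). All 5 orange points of the LYZ/DLA-DRA panel lie above the healthy median of 12.9%, while the groups overlap in each panel.

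The second question was which genes differed. Raw counts were summed per dog, first over all kept barcodes and then within each gate, and fitted with edgeR's quasi-likelihood test. A gene was called at an adjusted p under 0.01 and an absolute log2 fold change over 0.58. In each of the 4 populations, 0 genes were called (0% of those tested), and also 0 at an adjusted p under 0.05. DESeq2 called 7 genes over all barcodes, 1 in LYZ and DLA-DRA barcodes and 0 in the other gates. The genes named below as leading had the smallest unadjusted p-values of their population, with a symbol and at least 10 CPM. None passed the test, and their values are given as measured. A choice by small p in these same dogs favors genes whose groups do not overlap.

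For genes with at least 10 CPM over all barcodes, the median standard error of a log2 fold change was 0.16. In CD3E and in LYZ and DLA-DRA barcodes it was 0.15 and 0.16, and in MS4A1 barcodes, the smallest gate, 0.21. Adjusted p-values were taken over all 12461 to 15990 genes tested in a population.

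**Figure D2:**
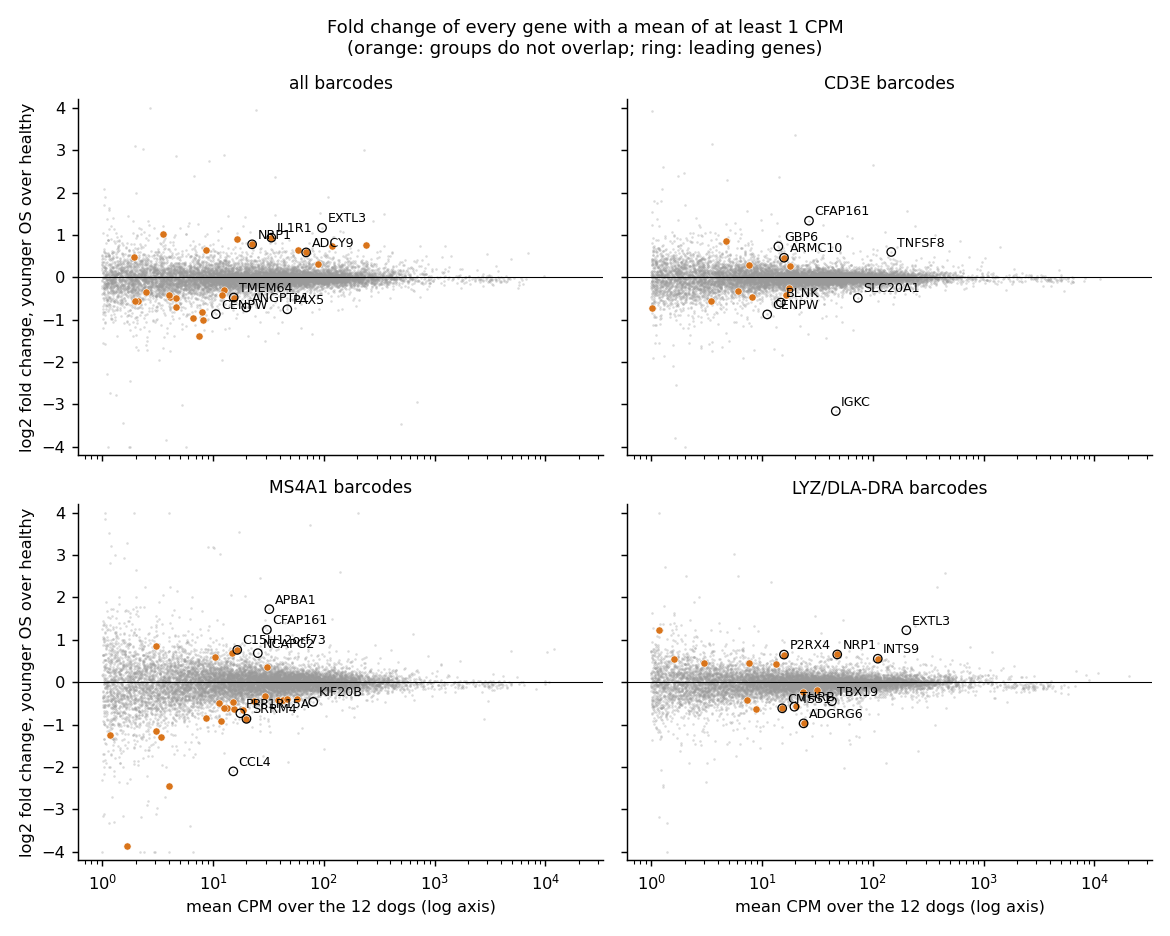
Log2 fold change of younger dogs with osteosarcoma over healthy dogs (vertical axis, clipped at 4 and −4) against mean CPM over the 12 dogs (log axis) in the 4 populations, for genes with a mean of at least 1 CPM. Grey points are genes, orange points genes whose groups do not overlap, and rings the leading genes, of which EXTL3 stands highest over all barcodes at 1.17.

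Over all barcodes, the leading genes on the higher side in the younger dogs with osteosarcoma were NRP1, EXTL3, IL1R1 and ADCY9, and on the lower side ANGPTL1, CENPW, PAX5 and TMEM64. In 14 genes (0.0876% of 15990) every dog with osteosarcoma was above every healthy dog, and in 19 genes (0.119%) below. With group labels drawn at random, a gene without ties would separate fully in either direction with a probability of 0.00253. At an unadjusted p under 0.05, 1.8% of genes were higher and 2.17% lower. In these sums, a difference in the number of cells of a type and in RNA per cell cannot be told apart.

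NRP1 encodes neuropilin-1, a co-receptor for vascular endothelial growth factor and class 3 semaphorins. It ran from 15.5 over a median of 17.1 to 21.0 CPM in healthy dogs and was at 42.5, 29.1, 24.3, 28.5 and 24.97 CPM in the dogs with osteosarcoma. The groups did not overlap, and OS3 was far above the other 4. The log2 fold change was 0.78 ± 0.14 (SE), with p = 8.45e-05 and an adjusted p of 0.816 in edgeR. DESeq2 gave an adjusted p of 0.00194.

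IL1R1, the signalling receptor for interleukin-1, ran from 12.5 over 26.4 to 29.5 CPM in healthy dogs. It was at 72.7, 43.0, 37.3, 30.7 and 49.8 CPM in the dogs with osteosarcoma, again without overlap (log2 fold change 0.94 ± 0.23, edgeR adjusted p = 0.822). ADCY9, an adenylyl cyclase that makes cyclic AMP, was at 42.5 to 70.7 CPM in healthy dogs and at 111, 82.5, 73.2, 74.2 and 90.4 CPM in the dogs with osteosarcoma (0.59 ± 0.14). Its groups did not overlap either. EXTL3, a glycosyltransferase of heparan sulfate synthesis, had the largest difference of the 4 at 1.17 ± 0.25, but its healthy dogs reached 91.9 CPM and OS7 was at 90.5 CPM.

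OS3 and OS9 gave the 2 highest values for EXTL3, at 228 and 189 CPM. The same 2 dogs were the 2 highest of all 12 in 12 of the 16 leading entries on the higher side over the 4 populations, where a gene counts once per population. Leaving out OS3 brought EXTL3 to 0.94, IL1R1 to 0.73, NRP1 to 0.62 and ADCY9 to 0.48. Each stayed above 0 without any single dog, which the choice by small p in these dogs made likely beforehand.

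On the lower side, PAX5, the transcription factor that holds B cells to their lineage, ran from 36.4 over 53.8 to 83.2 CPM in healthy dogs. It was at 27.8, 33.4, 35.2, 32.9 and 37.9 CPM in the dogs with osteosarcoma (log2 fold change −0.75 ± 0.20, edgeR adjusted p = 0.886). CENPW, a centromere protein of dividing cells, was at 13.1 ± 3.93 CPM (SD) in healthy dogs and 7.19 ± 0.903 CPM in the dogs with osteosarcoma (−0.87 ± 0.21, and −0.21 when the upper limits on barcodes were lifted). Lifting these limits, here and below, took off those on genes and UMIs and raised the mitochondrial limit to 20%. ANGPTL1, a secreted angiopoietin-like protein, was at 23.8 ± 4.603 against 14.5 ± 2.55 CPM (−0.71 ± 0.16). TMEM64 was the only one of these 4 genes without overlap, at 14.7 to 24.1 CPM against 11.1 to 13.5 CPM (−0.47 ± 0.14).

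**Figure D3:**
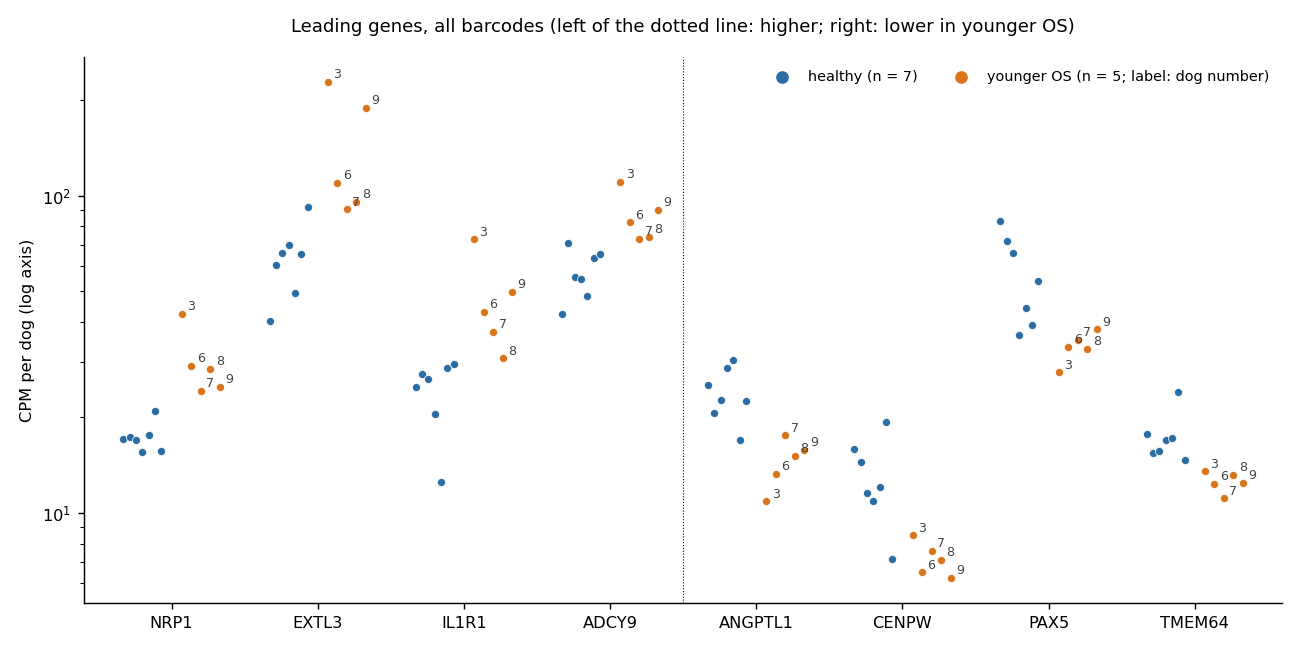
Leading genes over all kept barcodes, as CPM per dog (log axis), for 7 healthy dogs (blue) and 5 younger dogs with osteosarcoma (orange, labelled with the dog's number). NRP1, IL1R1, ADCY9 and TMEM64 show no overlap, and dog OS3 is the highest for each of the 4 genes left of the dotted line, at 42.5 CPM for NRP1.

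All 11 B cell genes were on the lower side, with a median log2 fold change of −0.50 against −0.03 over all genes. Summed, the list was at 666, 685 and 755 CPM in H1, H2 and H3 and at 427 to 480 CPM in the other healthy dogs. The dogs with osteosarcoma were at 376 to 469 CPM, so that the groups overlapped. EBF1, another B cell lineage factor (−0.77 ± 0.25), and PAX5 had an unadjusted p under 0.05, and none passed adjustment. Of 13 monocyte markers, 11 were on the higher side (median 0.42). FN1, fibronectin (1.34 ± 0.38), NRG1, neuregulin-1 (0.59 ± 0.26), BPI, an antibacterial granule protein (0.59 ± 0.26), and the scavenger receptor CD163 (0.42 ± 0.19) had an unadjusted p under 0.05. The monocyte list summed to 5222 to 11277 CPM in healthy dogs and 6836 to 17582 CPM in the dogs with osteosarcoma, beside the larger LYZ and DLA-DRA share. T cell markers were all slightly on the lower side (9 of 9, median −0.16).

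A list of genes for matrix and repair made by monocytes had 12 of 15 members on the higher side (median 0.26). VCAN, the proteoglycan versican, was at 0.74 ± 0.21, the protease inhibitor TIMP1 at 0.62 ± 0.27, the adhesive matrix protein THBS1, thrombospondin-1, at 0.61 ± 0.27, and FN1 as above, each at an unadjusted p under 0.05 and none passing adjustment. VCAN ran from 368 to 818 CPM in healthy dogs and was at 1228, 911, 1052, 739 and 860 CPM in the dogs with osteosarcoma. Only OS8 lay within the healthy range. FN1 ran from 110 to 248 CPM in healthy dogs and was at 102, 856, 560, 339 and 271 CPM in the dogs with osteosarcoma. Here OS3 was the lowest of all 12 dogs and the other 4 were above every healthy dog. The summed level of the 15 genes did not overlap over all barcodes, at 1001 to 1789 against 2026 to 2707 CPM. Within LYZ and DLA-DRA barcodes it did, at 3237 to 4959 against 4408 to 5588 CPM. Much of the sum over all barcodes came from VCAN, FN1 and TIMP1, already named for their p. Their means were 572, 168 and 261 CPM in healthy dogs and 958, 425 and 400 CPM in the dogs with osteosarcoma.

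Markers of polymorphonuclear myeloid-derived suppressor cells, neutrophil-like cells that stay with the mononuclear fraction, had 9 of 10 members on the higher side (median 1.04), but the summed list ran from 350 over a median of 827 to 3937 CPM in healthy dogs, highest in H7, and from 326 over 601 to 3357 CPM in the dogs with osteosarcoma, highest in OS9. FADS1 and TCN1 had an unadjusted p under 0.05 in edgeR, and neither passed adjustment. FADS1 was at 2.75, 9.85, 35.2, 21.7 and 84.1 CPM in the dogs with osteosarcoma (1.43 ± 0.58). Healthy dogs ran to 18.4 CPM, so that OS7, OS8 and OS9 were above every healthy dog. TCN1, which binds vitamin B12, was at 58.0 CPM in OS9 and between 0.479 and 3.95 CPM in the other 4 dogs with osteosarcoma, against 0.678 to 5.34 CPM in healthy dogs. CAMP, the antimicrobial cathelicidin, was at 0, 26.9, 212, 1.59 and 781 CPM in the dogs with osteosarcoma and 21.4 to 207 CPM in healthy dogs. Its log2 fold change of 1.09 ± 1.14 became −0.67 without OS9. The 12 neutrophil markers had a median of −0.19 with 3 on the higher side. The markers of monocytic suppressor cells had 7 of 10 on the higher side (median 0.40), but the summed list had a median of 786 CPM in healthy dogs (396 to 4111) and 776 CPM in the dogs with osteosarcoma (651 to 2388). Of its members IL31RA, a subunit of the interleukin-31 receptor, was higher without overlap at 17.95 to 26.3 against 6.18 to 17.5 CPM (0.90 ± 0.24, edgeR adjusted p = 0.886).

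The red cell genes HBM, AHSP and ALAS2 gave few counts in the dogs with osteosarcoma. HBM, a hemoglobin chain, had 2559 counts over the healthy dogs and 0 over the 5 dogs with osteosarcoma. Taking 3 counts over the group as the floor, it was at least 554-fold lower. H1 alone held 2003 of these counts and H2 none, and without H1 the bound was 148-fold. AHSP, a chaperone of hemoglobin, had 754 counts against 4, and ALAS2, the first enzyme of heme synthesis in red cell precursors, 410 against 15. H1 held 573 and 310 of these, and without H1 the ratios fell from 122 to 36.0 and from 17.8 to 5.31. EPB42, a protein of the red cell membrane, had 286 counts against 127 with every dog above 0, and SLC4A1 6 against 0. For HBM edgeR gave an unadjusted p of 0.00250 (adjusted 0.886). Red cells had been lysed before loading in both groups.

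IL1B, LTF and CD4, genes that the study text names for dogs with osteosarcoma, varied widely among the younger dogs. IL1B, the inflammatory cytokine interleukin-1 beta, ran from 4.49 to 271 CPM in healthy dogs and was at 228, 34.9, 128, 36.5 and 136 CPM in dogs with osteosarcoma (log2 fold change 0.47 ± 0.85, 0.05 without OS3, 1.23 without H1 and 2.09 with age as a covariate). LTF, the neutrophil granule protein lactoferrin, was at 47.3, 95.4, 217, 63.4 and 434 CPM against 51.3 to 185 CPM (0.94 ± 0.50, and 0.25 without OS9). CD4, which neutrophils of the dog carry as well as helper T cells, was at 97.7 to 216 CPM against 98.9 to 767 CPM (−0.68 ± 0.47), and 0.03 without H7, which alone was at 767 CPM. None of these genes had an unadjusted p under 0.05 in edgeR (0.583, 0.0829 and 0.166). The study named them from a Wilcoxon test over cells, with its older dogs with osteosarcoma included, so that dogs and test differ from those here.

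Of 11 glucocorticoid response genes over all barcodes, 9 were on the higher side (median 0.32). FKBP5 (1.499 ± 0.47), the circadian regulator PER1 (1.46 ± 0.59) and CD163 had an unadjusted p under 0.05, and FKBP5 and PER1 were highest in OS3 and OS9, at 1198 and 1007 CPM and at 42.2 and 42.4 CPM. Immune checkpoint genes were evenly split (5 of 11 on the higher side), with LAG3 (−0.79 ± 0.35) and BTLA (−0.44 ± 0.19), inhibitory receptors of lymphocytes, lower at that level. B cells carry BTLA too, and the B cell list was on the lower side in the same sums. Whether this bears on the BTLA level was not tested. Cell cycle genes were on the lower side in 10 of 11 (median −0.30) and none reached that level. Of 10 natural killer cell markers, 4 were on the higher side, and IL2RB, a subunit of the interleukin-2 receptor, was at −0.76 ± 0.30. The 12 mitochondrially encoded genes were all on the lower side (median −0.17), and of 58 ribosomal protein genes 46 were (median −0.04). RPL31 alone of those had an unadjusted p under 0.05. Heat shock genes (7 of 8 higher, median 0.14), immediate early genes (10 of 18, 0.13), MHC class I genes (7 of 9, 0.03), plasma cell genes (11 of 12, 0.31), platelet genes (3 of 6, 0.04) and eosinophil and basophil genes (3 of 7, −0.16) had no member at that level.

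In CD3E barcodes, 31316 from the 12 dogs, the leading genes on the higher side were CFAP161, TNFSF8, ARMC10 and GBP6, and on the lower side CENPW, SLC20A1, IGKC and BLNK. Every dog with osteosarcoma was above every healthy dog in 8 genes (0.0533% of 15017) and below in 8 genes (0.0533%). At an unadjusted p under 0.05, 1.12% of genes were higher and 1.57% lower. The smallest adjusted p in edgeR was 1.00.

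TNFSF8 encodes the CD30 ligand, which activated T cells carry. It ran from 106 over 121 to 141 CPM in healthy dogs and was at 209, 205, 122, 131 and 249 CPM in the dogs with osteosarcoma (log2 fold change 0.60 ± 0.16). OS7 and OS8 lay within the healthy range and the other 3 well above it. TNFSF8 was not particular to this gate. Its log2 fold change was 0.58 ± 0.16 over all barcodes and 0.46 ± 0.15 in LYZ and DLA-DRA barcodes, each at an unadjusted p under 0.05. In LYZ and DLA-DRA barcodes every dog with osteosarcoma but OS3 was above every healthy dog. GBP6, an interferon-inducible GTPase, was at 7.97 to 17.7 CPM against 14.7, 23.0, 12.9, 17.003 and 23.7 CPM (0.73 ± 0.21). ARMC10 was the one leading gene of this gate without overlap, at 11.2 to 15.0 CPM against 15.4 to 24.1 CPM (0.46 ± 0.13). CFAP161, a protein of cilia and flagella, was at 91.6 CPM in OS3 and 17.5 to 42.0 CPM in the other 4 (1.34 ± 0.35, and 0.83 without OS3).

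On the lower side, CENPW was at 13.7 ± 3.67 CPM in healthy dogs and at 10.9, 6.68, 6.25, 7.10 and 7.08 CPM in the dogs with osteosarcoma (−0.87 ± 0.21). OS3 was the one dog of the 5 within the healthy range. SLC20A1, a phosphate transporter, was at 65.5 to 112 CPM against 81.3, 62.1, 53.4, 52.8 and 48.6 CPM (−0.48 ± 0.15). IGKC, an immunoglobulin light chain, and BLNK, a B cell adaptor, are B cell genes. IGKC was at 310 CPM in H4 and 122 CPM in H5, in a group with a median of 22.3 CPM, and all 5 dogs with osteosarcoma were below that median. Its log2 fold change of −3.16 ± 1.02 was −2.06 without H4 and turned to 0.56 when the upper limits on barcodes were lifted.

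The B cell list was lower in this gate too. Of 11 members, 10 were on the lower side (median −0.61), and PAX5 (−0.93 ± 0.35), CD79B (−1.22 ± 0.52), BANK1 (−0.53 ± 0.20) and FCRLA (−1.37 ± 0.42) had an unadjusted p under 0.05. The share of CD3E barcodes that also held an MS4A1 UMI was 1.12 to 1.54% in healthy dogs and 0.126 to 1.28% in the dogs with osteosarcoma. Summed over the list, healthy dogs were at 69.9 to 141 CPM and dogs with osteosarcoma at 33.9 to 78.8 CPM. Monocyte markers moved the other way, 12 of 13 on the higher side (median 0.28). Their part in the other differences of this gate was not tested.

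T cell markers, among them CD3E, whose counts the gate affects, had a median of −0.09. The T cell receptor subunits CD3D and CD3G stood at 0.00 ± 0.23 and −0.01 ± 0.13, and naive T cell genes had a median of −0.05. LEF1, a transcription factor of naive T cells, was at 662 to 1748 CPM against 1067 to 1288 CPM (0.12 ± 0.20). In the T helper and regulatory list, 6 of 15 were on the higher side (median −0.10), and IL2RA, the high-affinity subunit of the interleukin-2 receptor, reached an unadjusted p under 0.05 (0.36 ± 0.16). Cytotoxic effector genes had a median of −0.12. Of these IL2RB, a subunit of the receptors for interleukin-2 and interleukin-15, alone had an unadjusted p under 0.05, at 104 to 273 CPM in healthy dogs and 98.1 to 156 CPM in the dogs with osteosarcoma (−0.64 ± 0.24), all 5 below the healthy median. The chemokine CCL5 was at 2917 CPM in OS9 and 190 to 469 CPM in the other 4, against 68.0 to 941 CPM in healthy dogs (0.86 ± 0.75, and −0.56 without OS9). Immune checkpoint genes had a median of 0.06 and TOX, a factor of T cell exhaustion, was at 771, 448, 350, 410 and 764 CPM in the dogs with osteosarcoma, against 324 to 542 CPM in healthy dogs (0.42 ± 0.21). OS6, OS7 and OS8 were within the healthy range. Chemokine receptors had a median of −0.10. Of the double-negative T cell markers 7 of 10 were on the lower side (median −0.10), and NMB (−0.71 ± 0.27) and BICDL1 (−0.35 ± 0.13), each with all 5 dogs below the healthy median, had an unadjusted p under 0.05. Of the γδ T cell markers 5 of 10 were (median −0.01), and IL17RB (−1.05 ± 0.47) reached that level. Over all barcodes both lists had 8 of 10 members on the lower side (medians −0.28 and −0.12). In CD3E barcodes cell cycle genes were on the lower side in 11 of 11 (−0.40), and none had an unadjusted p under 0.05. The summed list ran from 61.5 over 89.9 to 158 CPM in healthy dogs. In the dogs with osteosarcoma it ran from 75.0 over 84.9 to 119 CPM, inside the healthy range.

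In MS4A1 barcodes, 3912 from the 12 dogs and 43 from OS3, the leading genes on the higher side were C15H12orf73, APBA1, CFAP161 and NCAPG2, and on the lower side SRRM4, PPP1R15A, CCL4 and KIF20B. Every dog with osteosarcoma was above every healthy dog in 5 genes (0.0401% of 12461) and below in 23 genes (0.185%). At an unadjusted p under 0.05, 1.69% of genes were higher and 2.01% lower, and the smallest adjusted p in edgeR was 1.00.

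C15H12orf73 was at 10.1 to 15.9 CPM in healthy dogs and at 25.7, 21.7, 18.7, 19.9 and 24.2 CPM in the dogs with osteosarcoma (log2 fold change 0.76 ± 0.19), without overlap. NCAPG2, a subunit of the condensin complex that packs chromosomes, was at 11.9 to 24.7 CPM against 47.1, 34.4, 35.2, 27.3 and 23.0 CPM (0.69 ± 0.21, and 0.38 without upper limits on barcodes). APBA1, an adaptor that binds the amyloid precursor protein, was at 154, 33.9, 17.1, 11.2 and 70.8 CPM in the dogs with osteosarcoma, against 5.48 to 19.2 CPM in healthy dogs (1.72 ± 0.49). OS3, OS6 and OS9 were above every healthy dog, and without OS3 the log2 fold change was 1.23.

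On the lower side, SRRM4, a splicing factor best known from neurons, did not overlap, at 17.5 to 40.7 CPM in healthy dogs and 10.1 to 17.1 CPM in the dogs with osteosarcoma (−0.87 ± 0.25). PPP1R15A, which lets translation resume after stress, was at 15.3 to 29.0 CPM against 12.9, 14.1, 7.99, 13.7 and 15.3 CPM (−0.73 ± 0.22). CCL4, a chemokine, was at 5.09 over 14.8 to 55.2 CPM against 4.29, 3.29, 3.20, 3.11 and 12.4 CPM (−2.11 ± 0.66, and −3.89 to −0.93 over the alternatives tried). OS3 held 43 barcodes and 196844 UMIs in this gate, so that its values for SRRM4, PPP1R15A and CCL4 rest on few UMIs. Its place against the healthy dogs in these genes is thus uncertain. KIF20B, a kinesin of cell division, was at 79.2 to 107 CPM against 54.0 to 82.4 CPM (−0.46 ± 0.15, and −0.04 without upper limits on barcodes).

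All 12 plasma cell genes were on the higher side in this gate (median 0.60). The summed list was at 367 over 1826 to 2522 CPM in healthy dogs and at 506, 1122, 1951, 4774 and 2274 CPM in the dogs with osteosarcoma, so that only OS8 was outside the healthy range. TNFRSF17, the survival receptor BCMA, was at 0, 39.5, 69.8, 163 and 93.2 CPM in the dogs with osteosarcoma and 13.3 to 68.7 CPM in healthy dogs (1.11 ± 0.50). XBP1, a transcription factor of secretory cells, was at 38.6, 18.4, 22.4, 46.6 and 24.8 CPM against 7.22 to 26.5 CPM (0.73 ± 0.32). Both had an unadjusted p under 0.05. JCHAIN, which joins IgM and IgA, was at 111, 322, 663, 1120 and 539 CPM against 95.5 to 628 CPM (0.47 ± 0.49) and MZB1, an endoplasmic reticulum protein, was at 1078 CPM in OS8 alone (0.88 ± 0.65, and 0.07 without OS8). Genes of B cell identity were evenly placed. PAX5 stood at 0.00 ± 0.23 and BANK1, an adaptor of the B cell receptor, at −0.02 ± 0.22, and 5 of 11 B cell markers were on the higher side (median −0.02). These 11 markers include MS4A1, whose counts the gate affects. The PAX5 level in this gate was 444 ± 134 CPM in healthy dogs and 450 ± 143 CPM in the dogs with osteosarcoma.

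Genes of other cells in this gate went both ways. Monocyte markers (9 of 13 higher, median 0.20), dendritic cell markers (8 of 10, 0.34), polymorphonuclear suppressor cell markers (7 of 10, 0.55) and platelet markers (5 of 6, 0.32) were mostly on the higher side. The summed polymorphonuclear list was at 821 CPM in OS7 and 15.3 to 72.9 CPM in the other 4 dogs with osteosarcoma, whose group median of 25.7 CPM was below the healthy median of 64.4 CPM. All 9 T cell markers were on the lower side (median −0.47), and the share of MS4A1 barcodes that also held a CD3E UMI was 6.46 to 15.0% in healthy dogs and 2.33 to 9.16% in the dogs with osteosarcoma. KLRD1, a receptor of natural killer and cytotoxic T cells, was at 3.79 to 14.7 CPM against 0 to 2.36 CPM (−2.45 ± 0.63). OS3, one of those at 0, held only 196844 UMIs in this gate, so that a single UMI there would have been above the lowest healthy dog, and whether the groups overlap could not be seen in it. The interleukin-1 and NF-κB list had 10 of 14 members on the lower side (median −0.74), with CCL4, the chemokine CCL3 and PTGS2, the enzyme of inducible prostaglandin synthesis, at an unadjusted p under 0.05. H1 alone held CCL3 at 27.6 CPM and PTGS2 at 14.9 CPM, where every other dog was at 2.55 CPM or less. What part cells of another type had in these values was not tested.

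In LYZ and DLA-DRA barcodes, 9273 from the 12 dogs, the leading genes on the higher side were P2RX4, INTS9, EXTL3 and NRP1, and on the lower side ADGRG6, CMSS1, THRB and TBX19. Of these 8 genes, picked for a small p in the same dogs, 5 did not overlap. Every dog with osteosarcoma was above every healthy dog in 13 genes (0.0938% of 13858) and below in 12 genes (0.0866%), while 1.49% of genes were higher and 1.8% lower at an unadjusted p under 0.05. The gate held monocyte markers at 6103 to 9885 CPM in sum in healthy dogs and 7154 to 8054 CPM in the dogs with osteosarcoma.

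NRP1 was higher in this gate as well, at 94.4, 51.3, 49.2, 48.2 and 61.8 CPM against 31.1 over 38.7 to 47.8 CPM (log2 fold change 0.66 ± 0.17). Its difference over all barcodes was thus seen inside the monocyte gate too. P2RX4, a cation channel opened by extracellular ATP, was at 24.0, 16.9, 20.8, 17.5 and 21.4 CPM against 10.41 over 12.5 to 16.2 CPM (0.65 ± 0.14, p = 0.000269, edgeR adjusted p = 1.00). INTS9, a subunit of the Integrator complex, and EXTL3 lie next to each other in the RefSeq annotation of the assembly UU_Cfam_GSD_1.0. INTS9 was at 163, 118, 111, 123 and 168 CPM against 80.8 to 105 CPM (0.55 ± 0.13), and EXTL3 at 514, 189, 153, 173 and 480 CPM against 87.3 to 190 CPM (1.23 ± 0.32). OS3 and OS9 were again the 2 highest dogs for both.

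ADGRG6, an adhesion G protein-coupled receptor, had the smallest p of this gate. It ran from 23.5 over 29.1 to 37.5 CPM in healthy dogs and was at 10.8, 14.6, 15.3, 11.8 and 23.0 CPM in the dogs with osteosarcoma. The groups did not overlap, though OS9 lay just under the lowest healthy dog. The log2 fold change was −0.97 ± 0.18 (p = 8.65e-05, edgeR adjusted p = 1.00), and DESeq2 gave an adjusted p of 0.00458. CMSS1 was at 14.6 to 21.8 CPM against 8.91 to 13.7 CPM, also without overlap (−0.62 ± 0.16). THRB, a thyroid hormone receptor, was at 22.6 ± 4.17 against 15.4 ± 3.58 CPM (−0.58 ± 0.17), and TBX19, a T-box transcription factor, at 48.2 ± 6.81 against 35.1 ± 5.41 CPM (−0.45 ± 0.13).

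**Figure D4:**
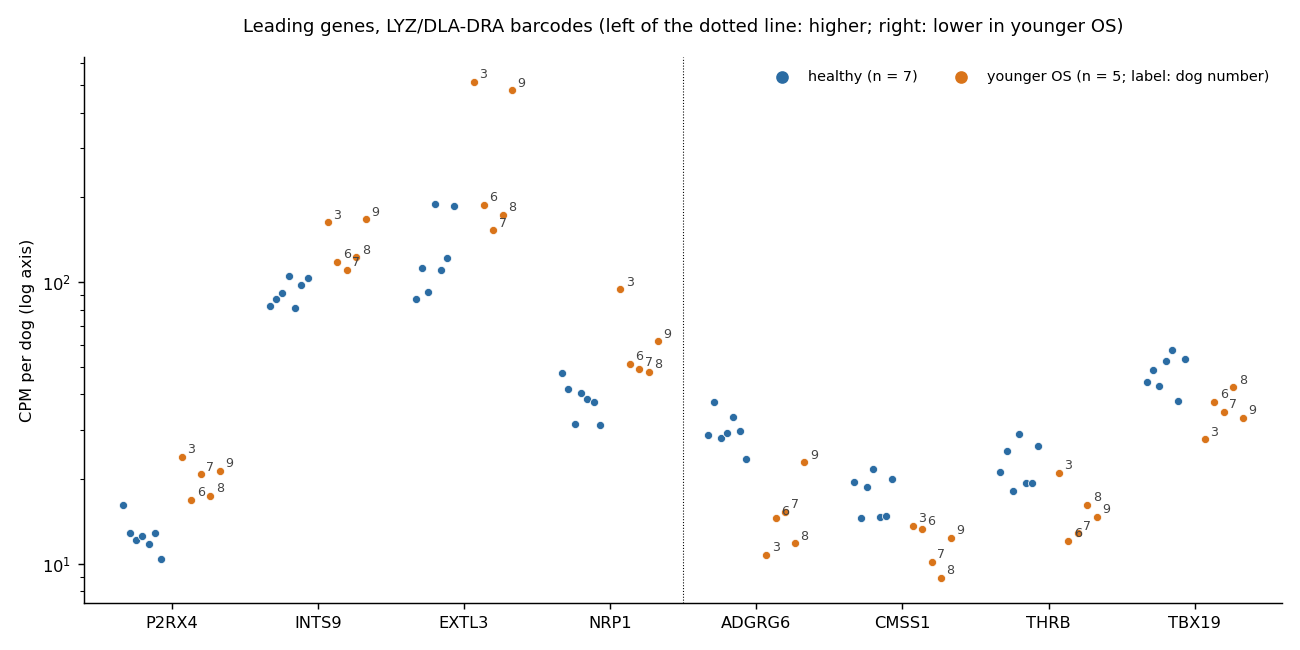
Leading genes in LYZ/DLA-DRA barcodes, as CPM per dog (log axis), for 7 healthy dogs (blue) and 5 younger dogs with osteosarcoma (orange, labelled with the dog's number). P2RX4, INTS9, NRP1, ADGRG6 and CMSS1 show no overlap, and for EXTL3 dogs OS3 and OS9 stand apart at 514 and 480 CPM.

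The glucocorticoid response list had 9 of 11 members on the higher side in LYZ and DLA-DRA barcodes (median 0.21). FKBP5, a co-chaperone of the glucocorticoid receptor that the receptor itself induces, was at 1479, 231, 97.0, 121 and 1620 CPM in the dogs with osteosarcoma and 59.8 over 114 to 312 CPM in healthy dogs. OS3 and OS9 were far above all other dogs, and OS6, OS7 and OS8 lay within the healthy range. The log2 fold change was 2.26 ± 0.66 (p = 0.00405, edgeR adjusted p = 1.00). The same 2 dogs were the highest for FKBP5 over all barcodes (1198 and 1007 CPM against 121 to 274 in healthy dogs), in CD3E barcodes (980 and 733 against 168 to 331 CPM) and in MS4A1 barcodes (283 and 288 against 60.6 to 110 CPM). PER1, a clock gene that glucocorticoids induce, was at 42.2, 13.9, 5.85, 3.89 and 42.4 CPM over all barcodes, against 3.37 to 20.8 CPM in healthy dogs (1.46 ± 0.59), again highest in OS3 and OS9.

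Of the matrix genes in the monocyte gate, FN1 was at 313, 1851, 1372, 784 and 794 CPM against 441 over 526 to 917 CPM (0.83 ± 0.33). TIMP1 was at 678, 873, 762, 818 and 883 CPM against 386 to 752 CPM (0.36 ± 0.16), and VCAN at 3165, 1749, 2121, 1629 and 2242 CPM against 1119 to 2321 CPM (0.39 ± 0.22). FN1 and TIMP1 had an unadjusted p under 0.05, 2 of the 15 members, and the list's median was 0.02. FN1 was lowest in OS3, where VCAN was highest.

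**Figure D5:**
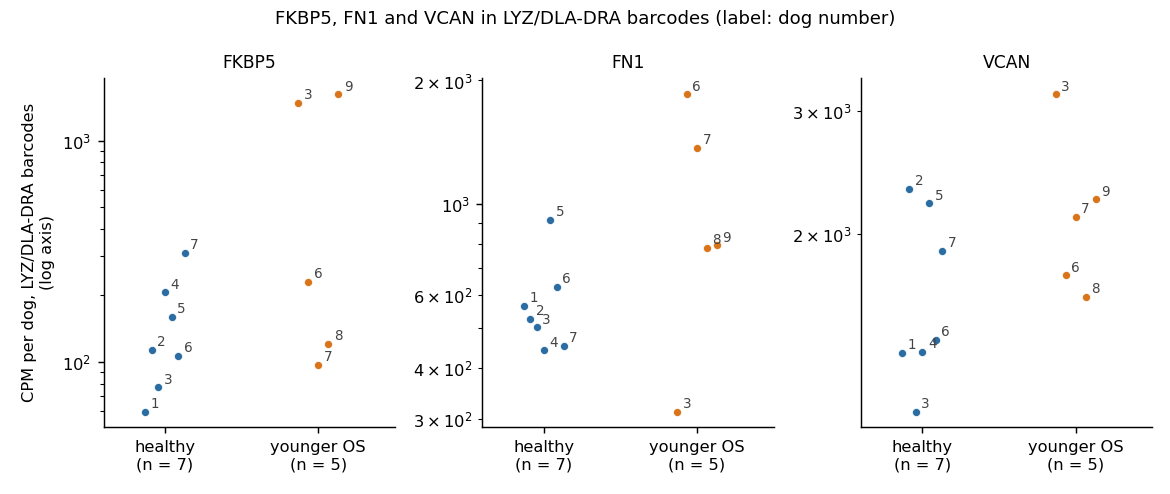
FKBP5, FN1 and VCAN in LYZ/DLA-DRA barcodes, as CPM per dog (log axis), for 7 healthy dogs (blue) and 5 younger dogs with osteosarcoma (orange), labelled with the dog's number. FKBP5 was above 1000 CPM only in OS3 and OS9, FN1 was highest in OS6 at 1851 CPM, and VCAN highest in OS3 at 3165 CPM.

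Inflammatory genes in the gate were mostly on the lower side and spread widely. Of 15 genes of the interleukin-1 and NF-κB response, 1 was on the higher side (median −0.39). The summed list had the same median of 2101 CPM in both groups, with healthy dogs at 540 to 16337 CPM, highest in H1, and the dogs with osteosarcoma at 1128 to 8014 CPM. IL18, a cytokine of the interleukin-1 family that is also on the list of monocytic suppressor cell markers, was at 43.5, 34.2, 38.3, 47.1 and 30.1 CPM against 40.6 over 55.0 to 153 CPM (−0.99 ± 0.34), and alone of the list had an unadjusted p under 0.05. CXCL8, the neutrophil attractant interleukin-8, ran from 15.0 to 7465 CPM in healthy dogs and was at 4449, 454, 489, 145 and 1127 CPM in the dogs with osteosarcoma (−0.46 ± 1.18). IL1B stood at −0.14 ± 0.96, LTF at −0.05 ± 0.25 and CD4 at −0.45 ± 0.29. With each dog left out, IL1B ran from −0.61 to 0.69 and LTF from −0.20 to 0.050, so that neither kept its sign. IL1B was at 2.13 with age as a covariate. Interferon-stimulated genes were on the higher side in 16 of 19 (median 0.34), but none had an unadjusted p under 0.05, and MX2, an antiviral GTPase, was at 131, 271, 262, 518 and 405 CPM against 141 to 647 CPM (0.24 ± 0.38).

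Dendritic cell markers had 3 of 10 on the higher side (median −0.06), and the lipid antigen-presenting molecule CD1C (−1.60 ± 0.71) and the high-affinity IgE receptor subunit FCER1A (−1.14 ± 0.53) were lower at an unadjusted p under 0.05. CD1C was at 7.45, 3.62, 25.01, 4.03 and 15.9 CPM against 3.86 over 30.7 to 105 CPM. Both genes mark dendritic cells that this gate can hold. MHC class II genes (median −0.06), S100 and antimicrobial genes (0.05), monocyte markers (0.06) and the 10 markers of monocytic suppressor cells (0.01) were near the median of all genes. The MHC class II list holds DLA-DRA, and the S100 and monocyte lists hold LYZ, whose counts the gate affects. The platelet markers were on the higher side in 6 of 6 (0.78), with the integrin subunit ITGB3 (1.06 ± 0.44) at an unadjusted p under 0.05, and summed to 11.6 to 74.2 CPM in healthy dogs and 10.8 to 74.4 CPM in the dogs with osteosarcoma. All 12 mitochondrially encoded genes (−0.23) and 57 of 58 ribosomal protein genes (−0.11) were on the lower side. What part these had in the other differences of the gate was not tested. IL31RA (0.54 ± 0.16), at 50.9, 41.9, 48.8, 57.6 and 57.6 CPM against 25.9 to 47.8 CPM, had an unadjusted p of 0.00501.

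The older dogs with osteosarcoma were set beside the younger ones for the same 32 leading entries, 28 different genes. Between younger and older dogs with osteosarcoma, none of the 32 had an adjusted p under 0.05 in edgeR (smallest 0.569) and 12 had an unadjusted p under 0.05, where 4.26, 4.65, 6.36 and 5.66% of all genes did over all, CD3E, MS4A1 and LYZ and DLA-DRA barcodes. The entries had been picked for their values in the same 5 younger dogs, so that these p-values are not independent of the choice and the levels below are a description. P2RX4 in LYZ and DLA-DRA barcodes was at 11.9 over 14.4 to 15.0 CPM in the older dogs, below every younger dog with osteosarcoma (log2 difference, younger minus older, 0.50). NRP1 over all barcodes was at 15.8 over 20.9 to 26.1 CPM in the older dogs, overlapping the younger dogs (0.48). ADGRG6 was as low in the older as in the younger dogs, at 5.91 over 15.2 to 22.6 CPM (0.03). For CCL4 in MS4A1 barcodes the older dogs ran from 0 over 32.4 to 116 CPM (−3.01). The difference in FKBP5 was 1.99, where the older dogs ran from 85.2 to 262 CPM in LYZ and DLA-DRA barcodes.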

How the data were processed

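The authors deposited 1 filtered matrix per dog of whole-number UMI counts per gene and barcode, with no normalization. Per the labels and the study's methods, libraries were made with a 3′ single-cell kit, and reads were aligned and counted with Cell Ranger 7.0.0 against CanFam3.1. Per the study, alignment was run in 2 ways, counting intronic reads or leaving them out, and which run gave the deposited counts is not given in the sources used here. All 20257 features were kept, 4432 of which have no symbol. Ages and recorded sex came from the study's patient table.

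Barcodes were filtered by the limits above, with no cluster or red cell removed and no doublet caller in the main result. Counts were summed per dog, and in a gate only for dogs with at least 25 barcodes. Genes with at least 10 counts were fitted with edgeR 4.0.16 (TMM, glmQLFit, glmQLFTest), with Benjamini-Hochberg adjustment over all genes tested, and DESeq2 1.42.0 as an alternative. Fold changes come from these fits, and CPM per dog from the counts over the library size after TMM scaling. The counts and ratios of red cell genes use the UMI totals without that scaling. Shares used an exact two-sided Wilcoxon test, whose smallest possible p here is 0.00253, with the Hodges-Lehmann shift. The procedure was tested on simulated data. Kept UMIs per group were 219088433 (healthy) and 142312361 (younger dogs with osteosarcoma). Of any 2 libraries of the series, at most 16 barcodes were shared.

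Named genes were the 4 in each population and direction with the smallest p, a symbol and at least 10 CPM, members of 32 gene lists with the highest CPM, the gate genes, and IL1B, LTF and CD4. List members named for an unadjusted p under 0.05, and CAMP, TNFSF8 and the other genes described per dog outside this rule, were chosen after their values were seen. The dogs, gates and lists were chosen with earlier results of these data known. The alternatives tried were other filters, normalizations, gates, covariates, doublet removal with Scrublet, and leaving out dogs.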

Additional observations from a re-analysis of the deposited data

Results flagged for a closer look

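In 82 groups of 5 or 7 dogs, the highest or lowest dog was set against the others by Dixon's criterion, and 13 groups held a dog far from the rest, where chance gives about 1 in 20. Among the leading genes over all barcodes, NRP1 was high in H6 (21.0 CPM) among the healthy dogs and in OS3 (42.5 CPM) among the dogs with osteosarcoma, and TMEM64 was high in H6 (24.1 CPM). CD4 over all barcodes was at 767 CPM in H7, the widest gap of the 13. In CD3E barcodes, CFAP161 was high in H2 (30.4 CPM), GBP6 in H3 (17.7 CPM), CENPW in OS3 (10.9 CPM) and IGKC in H4 (310 CPM). In MS4A1 barcodes, CFAP161 was high in H2 (36.9 CPM) and in OS3 (111 CPM), and CCL4 in OS9 (12.4 CPM). In LYZ and DLA-DRA barcodes, P2RX4 was high in H1 (16.2 CPM) and CD4 in OS3 (91.5 CPM). Of these 13 values, 4 came from OS3. In NRP1, TMEM64, GBP6, IGKC and P2RX4 leaving out the healthy dog named here did not turn the sign of the difference.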

How the results depend on the processing

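The count of called genes was 0 in all 4 populations when each dog was left out in turn. Counts differed from 0 as follows. DESeq2 called 7 genes over all barcodes (NRP1, HBM, BCAR3, KCNN2, IL1RL2, P2RX4 and MTARC2, of which IL1RL2 was at 2.19 by DESeq2 but −0.51 in edgeR, with H7 the highest dog) and 1 in LYZ and DLA-DRA barcodes (ADGRG6), age as a covariate gave 1 gene in MS4A1 barcodes (HBM), and leaving out OS6, OS7, OS8 and OS9, added after seeing the data, gave 1 in CD3E barcodes, where the 1 remaining dog with osteosarcoma is assumed to vary like the healthy dogs. The X chromosome list as a covariate and leaving out H2 and OS3, also added after seeing the data, gave 0. The numbers 3, 6 and 7 occur in both groups but name different dogs. Deviations of same-numbered dogs over all barcodes correlated at −0.53, 0.39 and 0.20. In all 4 populations the healthy dog with the highest correlation was H6 for OS6, but H2 for OS3. Whether same-numbered dogs share more than a number was not tested. The replicate block on these numbers gave 6 genes in MS4A1 barcodes and 0 in the other populations. Every other number occurs in 1 group only, so that the group difference in this fit rests on the dogs numbered 3, 6 and 7. The MS4A1 gate at 2 UMIs could be fitted in all dogs but OS3.

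The difference in the mean CD3E share ran from −1.77 to 3.56 percentage points with each dog left out, and was −1.20 without H2 and OS3. The LYZ and DLA-DRA share stayed higher (4.05 to 6.23 points, adjusted p 0.0519 to 0.218) and the MS4A1 share lower (−2.23 to −1.27 points, adjusted p 0.0727 to 0.245) with each dog left out. Of the 32 leading entries, 31 kept their sign in every alternative, the exception being IGKC in CD3E barcodes, at 0.56 without upper limits on barcodes. All 32 had been picked for a small p in these same dogs and 12 did not overlap, which made a kept sign likely beforehand. The size of the 31 entries could move far. Without OS6 to OS9, SLC20A1 in CD3E barcodes went from −0.48 to −0.01, CENPW there from −0.87 to −0.31 and THRB in LYZ and DLA-DRA barcodes from −0.58 to −0.10, while APBA1 in MS4A1 barcodes went from 1.72 to 3.46. CCL4 in MS4A1 barcodes ran from −3.89 with doublets removed to −0.93 in another alternative, and CFAP161 there was 0.79 in the stricter gate. LTF, CD4 and IL1B turned sign. Values with the replicate block rest on the dogs numbered 3, 6 and 7 of both groups. Over all barcodes LTF was −0.073 with the replicate block and −0.90 without OS6 to OS9, and CD4 was 0.024 by DESeq2 and between −0.87 and 0.026 with each dog left out. IL1B over all barcodes was 2.09 with age and 2.23 with the replicate block (edgeR adjusted p = 0.921). In LYZ and DLA-DRA barcodes IL1B was 2.13 with age, 2.06 with the replicate block (edgeR adjusted p = 0.994) and 0.030 without upper limits. It was 0.98 there without OS6 to OS9 and −0.61 to 0.69 with each dog left out. LTF there was 0.13 with age, 0.14 with the replicate block, 0.058 without upper limits, 0.010 and 0.15 with the stricter and wider gate, and −0.20 to 0.050 with each dog left out. CD4 there was 0.47 without OS6 to OS9. The causes were not tested.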
